A study of Mus musculus with 35 samples.

Results

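The genes of eicosanoid synthesis were followed in mouse hematopoietic stem/progenitor cells (HSPCs) with and without the histone demethylase JMJD1B. The 10 genes were taken by name as the prostaglandin, thromboxane and leukotriene synthesis genes Ptgs1, Ptgs2, Tbxas1, Alox5, Alox5ap, Alox15, Ltc4s, Lta4h, Hpgds and Hpgd, and 9 of them are among the 11982 gene names of the deposited expression table. Ltc4s was not analysed here. All 9 passed the filter on low values, a mean of at least 0.5 RPKM (reads per kilobase of transcript, scaled to the mapped reads of the library) over the libraries, which left 11863 genes to test.

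Polyadenylated RNA was sequenced from 2 libraries of wild-type (WT) HSPCs and 2 libraries of JMJD1B-/- HSPCs, all from the bone marrow of 129P2xC57BL/6J mice, for which the labels name no treatment beside the knockout itself. JMJD1B is the protein of the gene Kdm3b, and it was disrupted in every cell of the animal by a gene trap carried by 129P2 embryonic stem cells from a repository, so that 1 mutant allele is studied. The study used age-matched WT littermates as controls and adult males and females, and neither the age nor the sex of each library is labelled. The replicates are described as biological, but whether a library is 1 animal or a pool is not given.

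Eicosanoids are short-range lipid signals made from arachidonic acid, which phospholipases release from membranes. Cyclooxygenases turn it into prostaglandin H2, the precursor of prostaglandins and of thromboxane, whereas 5-lipoxygenase, helped by its activating protein, starts the path to the leukotrienes. In blood, thromboxane is best known from platelets and their megakaryocyte precursors, leukotrienes from granulocytes, monocytes, mast cells and basophils, and prostaglandin E2 as a regulator of hematopoietic stem cells.

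Of the 9 genes, 8 had a lower fitted level in JMJD1B-/- HSPCs and Alox15 had a log2 fold change of 0.01, but none passed an adjusted p under 0.05 in limma. Across all genes tested, 53.0% had a negative log2 fold change and 0.0421% passed an adjusted p under 0.05, 5 genes in all. The deposited values leave out genes that stay under 1 RPKM throughout. Hpgds (1.02 RPKM in WT replicate 1) and Ptgs2 (2.24 RPKM in WT replicate 2) reached that level in a WT library alone. This favours a lower direction for both, in the sign count and in the median below. At an unadjusted p under 0.05 in limma, 4 of the 9 were lower (Ptgs1, Tbxas1, Alox5 and Lta4h) and 0 were higher, beside 6.33% of all genes lower and 3.81% higher. In 6 of the 9 (these 4 with Alox5ap and Hpgd) the 2 JMJD1B-/- values were under the 2 WT values, which held for 22.7% of all genes, and in 0 of the 9 they were above, which held for 20.1%. The median log2 fold change of the 9 genes was −0.86, beside −0.02 for all genes tested. With 1 library left out, this median ranged from −1.21 to −0.59, and it was −0.59 without WT replicate 1. An adjusted p under 0.05 was reached by 3 of the 9 (Alox5, Alox5ap and Hpgd) and by 989 of all genes without JMJD1B-/- replicate 1, and by 3 (Alox5, Ptgs1 and Tbxas1) and 547 without JMJD1B-/- replicate 2. In such fits the lone library of a genotype is assumed to vary like the libraries of the other.

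**Figure D1:**
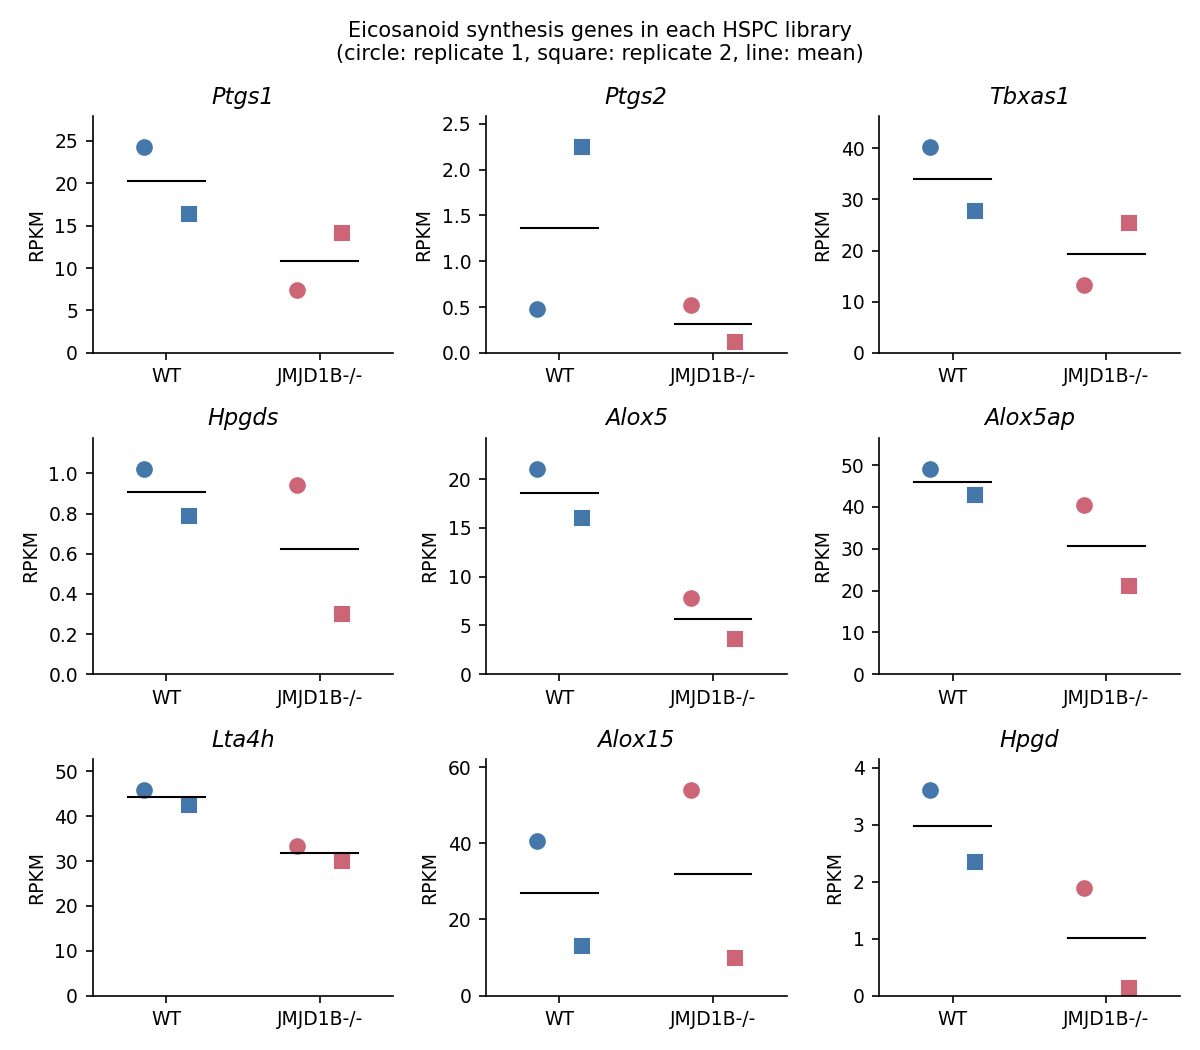
RPKM of each of the 9 listed genes (vertical axes, each from 0) in the 2 WT and 2 JMJD1B-/- HSPC libraries, with circles for replicate 1, squares for replicate 2 and a line at the mean of the 2. Both JMJD1B-/- points lie below both WT points for Ptgs1, Tbxas1, Alox5, Alox5ap, Lta4h and Hpgd, while Alox15 is high in replicate 1 of both genotypes.

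The libraries differed in depth and in the levels of genes of single blood lineages. The depth, recovered from the steps between low values, was 17.5 M and 24.6 M reads in WT replicates 1 and 2, 6.11 M in JMJD1B-/- replicate 1 and 21.0 M in JMJD1B-/- replicate 2. The steps alone gave JMJD1B-/- replicate 1 a depth 2 times as large. It was divided by 2 because 97.6% of the reads per gene of that library, over 84 genes, then came out even. The column name of this library alone holds the letters cat, which the labels do not explain. A count of 3 reads on a transcript of 1 kb thus stood for 0.491 RPKM in JMJD1B-/- replicate 1 and for 0.122 to 0.171 RPKM in the others. Kdm3b had 31.0 and 24.3 RPKM in WT and 4.00 and 4.63 RPKM in JMJD1B-/- HSPCs, 15.6% of the WT mean. As to the labelled cell type, the progenitor genes Kit (51.6 to 92.7 RPKM) and Gata2 (28.4 to 73.3 RPKM) were present in all 4 libraries, whereas Ly6a, which encodes the stem cell antigen Sca-1, was at 0.629 to 2.96 RPKM. Of the 14 stem and progenitor genes listed, 11 had a negative log2 fold change, beside 53.0% of all genes, and 6 were lower at an unadjusted p under 0.05 in limma (Cd34, Mecom, Gata2, Flt3, Angpt1 and Meis1), beside 6.33% of all genes, with summed levels of 329 to 388 RPKM in WT and 215 to 281 RPKM in JMJD1B-/- libraries. T and NK cell genes set JMJD1B-/- replicate 1 apart, with a sum of 111 RPKM there and of 23.2 to 47.4 RPKM in the others. Of the 12 tested, 10 had a positive log2 fold change, beside 53.0% of all genes with a negative one. At an unadjusted p under 0.05 in limma, 2 (Cd3e and Cd3g) were higher and 1 (Nkg7) lower, beside 3.81% and 6.33% of all genes. Nkg7, the most abundant in WT, thus went against most of the list, with 14.0 and 15.3 RPKM in WT and 7.19 and 4.84 RPKM in JMJD1B-/- libraries. Of 13 erythroid genes, 11 were above WT with an unadjusted p under 0.05 in limma, beside 3.81% of all genes, and 0 at an adjusted p under 0.05 (lowest 0.155), with summed levels of 829 to 1194 RPKM in WT and 2124 to 2835 RPKM in JMJD1B-/- libraries. Car2, a carbonic anhydrase and the most abundant of them in WT, had 259 and 324 RPKM in WT and 640 and 709 RPKM in JMJD1B-/- libraries. Lists of myeloid and megakaryocyte genes are given beside the members with which they are compared. In whole-population RNA such as this, fewer cells of a type and less RNA of a gene per cell cannot be told apart.

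The promoters of the genes the comparison turns on are shown first, because Ptgs1 and Tbxas1 had nearly the same profile over the libraries and Alox5 had the smallest unadjusted p. Each line gives the 250 bases that end just before the RefSeq start of the gene in assembly GRCm38.p6, 5′ to 3′ on the strand of the gene. Ptgs1 is at chr2:36230176-36230425 on the plus strand, and its capitals mark AGGAAGT, a match to the core that ETS-family factors bind, starting 23 bases before the gene. Tbxas1 is at chr6:38918736-38918985 on the plus strand, and its capitals mark TATAAA, the TATA box core, starting 11 bases before the gene, together with an overlapping match on the other strand. Alox5 is at chr6:116461179-116461428 on the minus strand, and its capitals mark GGGCGG, the core of the GC box that Sp1 binds, starting 35 bases before the gene.
Ptgs1: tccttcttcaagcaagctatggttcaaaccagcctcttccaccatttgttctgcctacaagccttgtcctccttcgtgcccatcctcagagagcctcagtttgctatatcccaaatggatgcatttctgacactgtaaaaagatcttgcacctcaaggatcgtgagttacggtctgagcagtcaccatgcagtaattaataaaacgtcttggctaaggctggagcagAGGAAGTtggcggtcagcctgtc
Tbxas1: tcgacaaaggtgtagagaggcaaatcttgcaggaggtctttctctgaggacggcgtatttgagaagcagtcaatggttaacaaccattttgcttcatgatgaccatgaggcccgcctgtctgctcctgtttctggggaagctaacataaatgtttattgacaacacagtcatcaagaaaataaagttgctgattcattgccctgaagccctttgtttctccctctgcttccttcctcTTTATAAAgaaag
Alox5: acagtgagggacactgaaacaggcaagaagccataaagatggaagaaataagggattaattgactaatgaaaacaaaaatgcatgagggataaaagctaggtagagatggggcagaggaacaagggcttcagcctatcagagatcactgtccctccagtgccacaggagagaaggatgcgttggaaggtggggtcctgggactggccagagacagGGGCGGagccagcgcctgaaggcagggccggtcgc
The motifs were chosen after the sequences had been seen and were searched on both strands, and a match describes the letters alone. Among 32851 promoters of the same length, 7.69% held AGGAAGT, 12.4% held TATAAA and 32.7% held GGGCGG. Of the 8 members with a promoter in the RefSeq table (Alox5ap and Alox15 had none), AGGAAGT also occurred in Hpgds and Ltc4s, and GGGCGG in Ptgs2 and Hpgd. The GATA-type sequences AGATAA or TGATAA, found in 16.6% of all promoters, occurred in none of the 8. The Ptgs1 and Tbxas1 windows thus shared neither of the motifs marked in them.

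Among the cyclooxygenases, Ptgs1, the constitutive form (COX-1) that platelets use, was the more abundant. The WT libraries had 24.3 and 16.4 RPKM of it and the JMJD1B-/- libraries had 7.46 and 14.2 RPKM. The groups did not overlap, but WT replicate 2 and JMJD1B-/- replicate 2 were close to each other. The JMJD1B-/- mean was 53.2% of the WT mean, with a log2 fold change of −0.95 (SE 0.35, 95% interval −1.76 to −0.14), an unadjusted p of 0.0275 and an adjusted p of 0.435 in limma. The size moved with each library left out, as the log2 fold change was −1.41 (limma adjusted p = 0.0248) without JMJD1B-/- replicate 2 and −0.49 (unadjusted p 0.0647) when replicate 1, the library with the fewest reads, was the one left out. The unadjusted p in limma was also above 0.05 without WT replicate 1 (0.194, at a log2 fold change of −0.67) and without a trend (0.0763). Ptgs1 is also among the genes that the study chose to display from these same libraries, so that its difference is not independent evidence.

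Ptgs2 encodes the inducible cyclooxygenase (COX-2), which many cells switch on in inflammation. Its WT libraries were at 0.476 and 2.24 RPKM and its JMJD1B-/- libraries at 0.521 and 0.116 RPKM. WT replicate 2 stood above the other 3 and the groups overlapped. Its log2 fold change was −1.67 (SE 1.07, 95% interval −4.17 to 0.84, limma adjusted p = 0.630), and in the JMJD1B-/- libraries the values stand for 3.18 and 2.44 reads per kilobase of transcript. It was −2.68 without WT replicate 1, −0.90 without JMJD1B-/- replicate 2 and −0.75 with a pseudocount of 1. The WT replicates differed by 2.03 on the log2 scale, more than in 99.2% of genes. WT replicate 2 also held more RNA of stromal genes: the summed level of 10 stroma and endothelium genes was 80.0 RPKM there and 44.1 RPKM in WT replicate 1, beside 27.1 and 14.1 RPKM in the JMJD1B-/- libraries. The most abundant gene of the list was Pecam1, an adhesion gene of endothelium and leukocytes, with 34.0 and 33.9 RPKM in WT and 19.5 and 7.97 RPKM in JMJD1B-/- libraries. Within that list, named after their values were seen, Col1a1 had 0.997 and 15.7 RPKM and Cxcl12 had 0.293 and 5.92 RPKM in WT replicates 1 and 2. The part of these cells in the level of Ptgs2 was not tested.

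Tbxas1 encodes thromboxane A synthase, which turns prostaglandin H2 into thromboxane A2, a platelet activator. The WT libraries had 40.2 and 27.8 RPKM of it and the JMJD1B-/- libraries had 13.3 and 25.5 RPKM. As with Ptgs1, the groups did not overlap, the second replicates were close and JMJD1B-/- replicate 1 was lowest. The JMJD1B-/- mean was 57.0% of the WT mean, and the log2 fold change was −0.86 (SE 0.33, 95% interval −1.63 to −0.08, unadjusted p 0.0352, adjusted p 0.466 in limma). It was −1.32 (limma adjusted p = 0.0235) without JMJD1B-/- replicate 2 and −0.39 (unadjusted p 0.110) without JMJD1B-/- replicate 1. As for Ptgs1, the unadjusted p in limma was also above 0.05 without WT replicate 1 (0.216, at a log2 fold change of −0.59) and without a trend (0.0979).

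Ptgs1 and Tbxas1, consecutive enzymes of thromboxane synthesis, kept nearly the same proportion. The ratio of Ptgs1 to Tbxas1, in RPKM, was 0.603 and 0.590 in the WT libraries and 0.559 and 0.557 in the JMJD1B-/- libraries. Its highest value was 1.08 times its lowest, and both JMJD1B-/- ratios were under both WT ratios. By root mean square distance over the 4 libraries of log2(RPKM + 0.1) centred on each gene's mean, Tbxas1 was the second nearest of all genes to Ptgs1, at 0.05 beside a median of 0.62 for all genes, after Csnk1e. Ptgs1 was likewise the second nearest to Tbxas1. These likenesses were looked up after the values had been seen, and they cover 4 libraries.

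Of 16 genes of megakaryocytes and platelets, all 16 had a negative log2 fold change, 10 were lower at an unadjusted p under 0.05 in limma, 0 were higher, none passed an adjusted p under 0.05 (lowest 0.0640), and none was at 0 in any library. The shares of all genes are 53.0% negative, 6.33% lower and 3.81% higher. Their summed level was 862 to 913 RPKM in WT and 389 to 527 RPKM in JMJD1B-/- HSPCs. Their most abundant gene, Pf4, which encodes platelet factor 4, had 348 and 308 RPKM in WT and 92.8 and 167 RPKM in JMJD1B-/- libraries, with its lowest level in JMJD1B-/- replicate 1 as for Ptgs1 and Tbxas1. The part of megakaryocyte-lineage cells in the levels of Ptgs1 and Tbxas1 was not tested.

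Hpgds, the hematopoietic prostaglandin D synthase of mast cells and some lymphocytes, was barely above the filter. In WT HSPCs it was at 1.02 and 0.788 RPKM, and in JMJD1B-/- HSPCs at 0.942 and 0.302 RPKM. JMJD1B-/- replicate 2 was lowest and the groups overlapped. The log2 fold change was −0.63 (SE 0.83, 95% interval −2.56 to 1.30, limma adjusted p = 0.827) and was 0.06 without JMJD1B-/- replicate 2, so that no direction can be given.

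Alox5, which encodes 5-lipoxygenase, the enzyme that commits arachidonic acid to leukotrienes, had the largest difference relative to its error. Its WT libraries were at 21.1 and 16.0 RPKM and its JMJD1B-/- libraries at 7.80 and 3.64 RPKM. Every JMJD1B-/- value was below every WT value, and JMJD1B-/- replicate 2 was lowest. The JMJD1B-/- mean of 5.72 ± 2.94 RPKM (SD, n = 2) was 30.8% of the WT mean of 18.6 ± 3.57 RPKM (SD, n = 2). The log2 fold change was −1.77 (SE 0.37, 95% interval −2.64 to −0.89), with an unadjusted p of 0.00183 and an adjusted p of 0.209 in limma. It was −2.31 (limma adjusted p = 6.3e-06) without JMJD1B-/- replicate 1 and −1.23 (limma adjusted p = 0.0282) without JMJD1B-/- replicate 2. Its unadjusted p was above 0.05 (0.0914) in a test gene by gene, which does not pool the spread over genes. Without a WT library the adjusted p did not pass, at −1.57 (limma adjusted p = 0.9998) without WT replicate 1 and −1.96 (limma adjusted p = 0.980) without WT replicate 2.

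Alox5ap encodes FLAP, the membrane protein that presents arachidonic acid to 5-lipoxygenase. It was the most abundant of the 9 genes in WT HSPCs, at 49.2 and 42.8 RPKM, and reached 40.4 and 21.0 RPKM in JMJD1B-/- HSPCs. The groups did not overlap, but JMJD1B-/- replicate 1 lay just under the lower WT library. The log2 fold change was −0.65 (SE 0.30, 95% interval −1.36 to 0.06, unadjusted p 0.0675, adjusted p 0.521 in limma). It was −1.12 (limma adjusted p = 0.00184) without JMJD1B-/- replicate 1 and −0.18 without JMJD1B-/- replicate 2.

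Lta4h encodes leukotriene A4 hydrolase, which makes the neutrophil attractant leukotriene B4 and is found in many cell types. The WT libraries had 45.9 and 42.6 RPKM of it and the JMJD1B-/- libraries had 33.4 and 30.0 RPKM. Its replicates were the closest of the 9 genes in both genotypes, and the groups did not overlap. The JMJD1B-/- mean was 71.7% of the WT mean, with a log2 fold change of −0.48 (SE 0.18, 95% interval −0.90 to −0.06, unadjusted p 0.0301, adjusted p 0.443 in limma). The log2 fold change stayed between −0.56 and −0.40 whichever library was left out, but the unadjusted p in limma was above 0.05 without WT replicate 1 (0.180), WT replicate 2 (0.105) and JMJD1B-/- replicate 2 (0.0624), and in limma without a trend (0.0752).

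Within the leukotriene path, ratios of RPKM were taken library by library. The ratio of Alox5 to Alox5ap, in RPKM, was 0.429 and 0.375 in the WT libraries and 0.193 and 0.173 in the JMJD1B-/- libraries. The ratio of Alox5 to Lta4h was 0.460 and 0.377 in the WT libraries and 0.233 and 0.121 in the JMJD1B-/- libraries. In both ratios the groups did not overlap, whereas the ratio of Lta4h to Alox5ap, at 0.933 and 0.996 in WT and 0.826 and 1.43 in JMJD1B-/- libraries, overlapped. With 2 libraries against 2, an exact permutation test cannot give a two-sided p under 0.333, and the ratios, chosen after the values were seen, have no test.

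**Figure D2:**
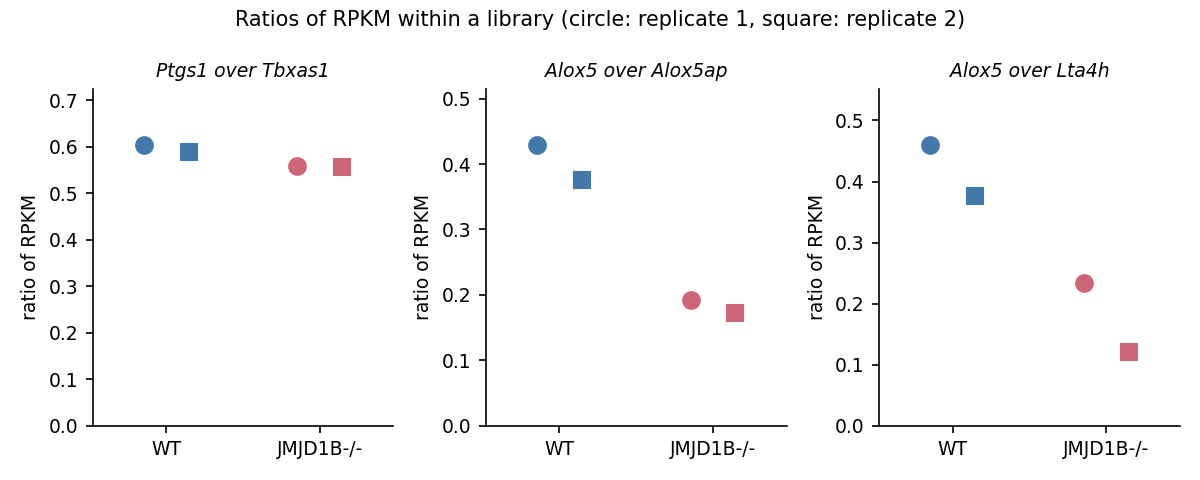
Ratio of RPKM between 2 genes within each library (vertical axes from 0), with WT in blue, JMJD1B-/- in red, circles for replicate 1 and squares for replicate 2. The ratio of Ptgs1 to Tbxas1 lies between 0.557 and 0.603 in all 4 libraries. This ratio and those of Alox5 to Alox5ap and to Lta4h are lower in both JMJD1B-/- libraries than in both WT libraries.

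The 3 genes with the profile most like that of Alox5 were Ugt1a9 at a root mean square log2 distance of 0.05, Hk3 at 0.06 and Gm10413 at 0.07, beside a median distance of 1.03 for all genes. Hk3, a hexokinase of myeloid cells, had 21.4 and 15.1 RPKM in WT and 7.11 and 3.57 RPKM in JMJD1B-/- HSPCs, and the other two were at or under 2.35 RPKM. Vim, which encodes the filament protein vimentin, was nearest to Alox5ap at a distance of 0.02, a gene named after its values were seen.

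Of the lists of genes of cells that can make leukotrienes, those of basophils and mast cells, monocytes and neutrophils had members lower in JMJD1B-/- libraries, and that of eosinophils, given with Alox15, had none at an unadjusted p under 0.05, beside 6.33% of all genes. Of 12 basophil and mast cell genes tested, 10 were lower at an unadjusted p under 0.05 in limma, and their summed level was 678 to 718 RPKM in WT and 210 to 212 RPKM in JMJD1B-/- HSPCs. The most abundant in WT was Prss34, a basophil protease, with 246 and 258 RPKM in WT and 30.6 and 19.9 RPKM in JMJD1B-/- libraries (limma adjusted p = 0.00637). Of 13 monocyte and macrophage genes, 5 were lower at that threshold (Csf1r, Ly86, F13a1, Irf8 and Klf4) and 0 higher, with summed levels of 177 to 199 RPKM in WT and of 153 and 48.4 RPKM in JMJD1B-/- replicates 1 and 2. Irf8, a transcription factor of monocytes and the most abundant of them in WT, had 45.9 and 55.0 RPKM in WT and 33.3 and 9.34 RPKM in JMJD1B-/- libraries. Of 10 neutrophil genes tested, 7 were lower (Elane, Mpo, Prtn3, Ctsg, Ms4a3, Csf3r and Cxcr2) and 2 (S100a8 and S100a9) higher. The shares of all genes are 6.33% lower and 3.81% higher. All 12 neutrophil genes listed, with the untested Ltf and Camp, summed to 209 to 301 RPKM in WT and 58.2 to 92.2 RPKM in JMJD1B-/- HSPCs. Mpo, the myeloperoxidase of primary granules and the most abundant of them, had 131 and 79.0 RPKM in WT and 21.4 and 12.1 RPKM in JMJD1B-/- libraries (limma adjusted p = 0.0640). Prtn3 was the 1 gene of the list with an adjusted p under 0.05 in limma (0.04998). The late granule genes Ngp, Ltf and Camp, named after their values were seen, had higher means in JMJD1B-/- HSPCs. Ngp had 2.15 and 0.454 RPKM in WT and 4.78 and 1.63 RPKM in JMJD1B-/- libraries, which overlap. Ltf had 0.205 and 0.0442 RPKM in WT and 1.28 and 0.397 RPKM in JMJD1B-/- libraries. Camp had 0.0948 and 0 RPKM in WT and 0 and 1.03 RPKM in JMJD1B-/- libraries. JMJD1B-/- replicate 2 had the lowest sum of the monocyte and of the neutrophil list, as it had the lowest level of Alox5 and Alox5ap. Of the 12 basophil and mast cell genes, 8 were also lowest there, while Kit and Gata2, which stem and progenitor cells express too, were higher in replicate 2 than in replicate 1 of JMJD1B-/- HSPCs and kept the 2 sums alike. The part of these cells in the levels of Alox5, Alox5ap and Lta4h was not tested.

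Alox15 encodes the lipoxygenase that oxidizes arachidonic acid at carbons 12 and 15 in the mouse and is abundant in eosinophils and some macrophages. In WT HSPCs it was at 40.6 and 13.2 RPKM, and in JMJD1B-/- HSPCs at 54.0 and 9.98 RPKM. Replicate 1 was high and replicate 2 low in both genotypes, so the groups overlapped throughout. The log2 fold change was 0.01 (SE 0.78, 95% interval −1.82 to 1.83, limma adjusted p = 0.997), and it ranged from −1.21 without JMJD1B-/- replicate 1 to 1.22 without JMJD1B-/- replicate 2. The replicates differed by 1.62 in WT and by 2.42 in JMJD1B-/- on the log2 scale, more than in 98.5% and 97.4% of genes.

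Of the 9 eosinophil genes, 8 were higher in replicate 1 than in replicate 2 of both genotypes, the exception being Ccr3 in WT at 1.70 and 2.47 RPKM. Their summed level, most of it Prg2, was 6065 and 1170 RPKM in WT replicates 1 and 2 and 5515 and 1229 RPKM in JMJD1B-/- replicates 1 and 2. None was at 0 in a library, none passed an unadjusted p under 0.05 in limma, and the groups of all 9 overlapped. Prg2, the major basic protein of eosinophil granules and the most abundant of them, had 5377 and 988 RPKM in WT and 4328 and 1077 RPKM in JMJD1B-/- libraries. Ratios of Alox15 to eosinophil genes, in RPKM and chosen after the values were seen, had no common direction. The ratio to the peroxidase gene Epx was 0.215 and 0.249 in WT and 0.437 and 0.278 in JMJD1B-/- libraries. The ratio to Ear1 was 0.226 and 0.289 in WT and 0.120 and 0.231 in JMJD1B-/- libraries, which overlap. The ratio to Prg2 was 0.00755 and 0.0133 in WT and 0.0125 and 0.00926 in JMJD1B-/- libraries, which overlap. The list includes Ear1, Ear2 and Ear6, near-identical copies among which reads may be split. The part of eosinophil-lineage cells in the level of Alox15 was not tested.

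**Figure D3:**
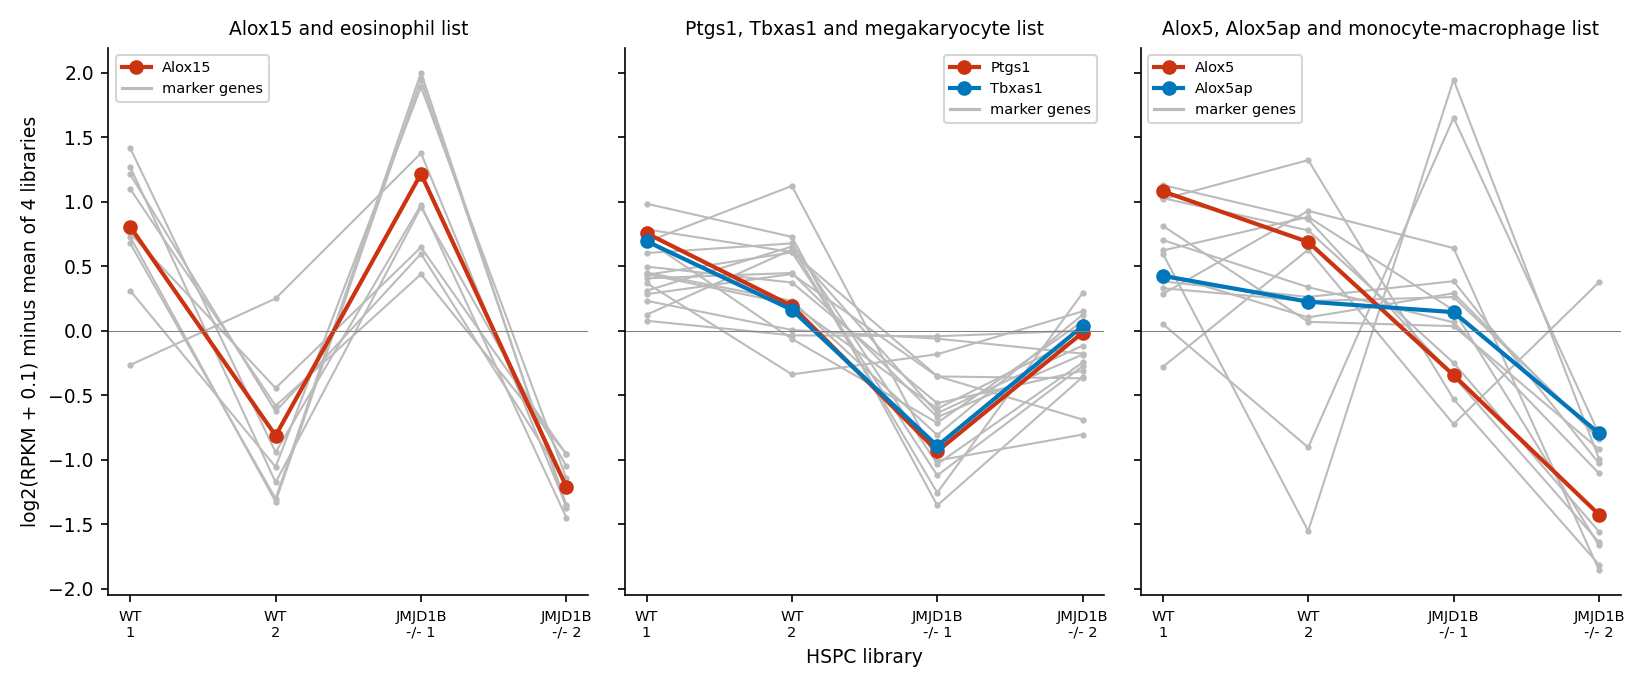
log2(RPKM + 0.1) minus each gene's mean over the 4 libraries (vertical axis) in each HSPC library (horizontal axis), with the named synthesis genes in colour and the tested genes of a marker list in grey. Alox15 is high in replicate 1 of both genotypes with most eosinophil genes, Ptgs1 and Tbxas1 are lowest in JMJD1B-/- replicate 1 with many megakaryocyte genes, and Alox5 and Alox5ap are lowest in JMJD1B-/- replicate 2 with most monocyte and macrophage genes.

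Hpgd encodes 15-hydroxyprostaglandin dehydrogenase, which inactivates prostaglandins, and is the 1 gene of the 9 that removes rather than makes eicosanoids. Its WT libraries were at 3.61 and 2.34 RPKM and its JMJD1B-/- libraries at 1.90 and 0.138 RPKM. The groups did not overlap, and JMJD1B-/- replicate 2 stood far below the other 3, at 2.90 reads per kilobase of transcript. The log2 fold change was −2.13 (SE 0.97, 95% interval −4.39 to 0.14, unadjusted p 0.0621, adjusted p 0.511 in limma). It was −3.66 (limma adjusted p = 0.000886) without JMJD1B-/- replicate 1 and −0.59 without JMJD1B-/- replicate 2, and with a pseudocount of 1 it was −1.11 (limma unadjusted p = 0.0478, adjusted p = 0.469). The JMJD1B-/- replicates differed by 3.07 on the log2 scale, more than in 98.8% of genes.

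By level per length in WT HSPCs, the genes ran from Alox5ap at 46.0 ± 4.51 RPKM through Lta4h at 44.2 ± 2.33, Tbxas1 at 34.0 ± 8.78, Alox15 at 26.9 ± 19.4, Ptgs1 at 20.3 ± 5.57 and Alox5 at 18.6 ± 3.57 to Hpgd at 2.98 ± 0.899, Ptgs2 at 1.36 ± 1.25 and Hpgds at 0.906 ± 0.167 RPKM (mean ± SD, n = 2). Alox5ap and Lta4h did not differ beyond their spread, nor did neighbours from Tbxas1 to Alox5, nor Ptgs2 and Hpgds. The steps from Lta4h to Tbxas1, from Alox5 to Hpgd and from Hpgd to Ptgs2 were free of overlap between libraries. Alox5ap was above 90.3% and Hpgds above 4.72% of the listed genes.

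The rest of the pathway was divided more evenly by sign. Of 85 further genes of eicosanoid biology in the list, 51 were in the table and tested, 0 passed an adjusted p under 0.05, 5 were lower and 2 higher at an unadjusted p under 0.05 in limma, beside the 6.33% and 3.81% of all genes given above. By sign, 27 of the 51 were lower and 24 higher, a share like the 53.0% of all genes that were lower, and the median log2 fold change was −0.13. The JMJD1B-/- values were under both WT values in 18 of the 51 and over both in 11, beside 22.7% and 20.1% of all genes.

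Before arachidonic acid reaches the enzymes it is stored and released. Of 8 phospholipase genes, 6 had a positive log2 fold change, beside 53.0% of all genes with a negative one. None of the 8 passed an unadjusted p under 0.05 in limma. Pla2g12a, the most abundant, had 15.1 and 27.3 RPKM in WT and 21.2 and 30.9 RPKM in JMJD1B-/- libraries, which overlap. Pla2g4a, the cytosolic phospholipase A2 and chosen after its values were seen, went the other way, with 21.9 and 16.3 RPKM in WT and 11.5 and 14.2 RPKM in JMJD1B-/- libraries, which do not overlap (log2 fold change −0.56, SE 0.24, limma unadjusted p = 0.0508, adjusted p = 0.491). Of 9 genes that make, store or recycle arachidonic acid, Lpcat3, which loads it into phospholipids, had 9.98 and 11.6 RPKM in WT and 15.3 and 17.7 RPKM in JMJD1B-/- libraries (log2 fold change 0.60, SE 0.22, limma adjusted p = 0.435). Mgll, the lipase that frees it from 2-arachidonoylglycerol, had 3.34 and 4.87 RPKM in WT and 10.5 and 6.84 RPKM in JMJD1B-/- libraries (log2 fold change 1.05, SE 0.34, limma adjusted p = 0.395). In both genes the JMJD1B-/- libraries were above the WT libraries. Fads2, a desaturase on the way to arachidonic acid and the most abundant of this role, overlapped at 27.5 and 33.2 RPKM in WT and 32.3 and 34.9 RPKM in JMJD1B-/- libraries.

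Of 8 other synthases and lipoxygenases, Alox12, the platelet 12-lipoxygenase, was the one lower at an unadjusted p under 0.05, beside 6.33% of all genes. It had 11.8 and 17.0 RPKM in WT and 8.86 and 5.68 RPKM in JMJD1B-/- libraries, with a log2 fold change of −0.99 (SE 0.31, limma adjusted p = 0.386) and no overlap. Ptges3, the cytosolic prostaglandin E synthase that is also the chaperone p23, was the most abundant, at 73.2 and 75.9 RPKM in WT and 84.8 and 106 RPKM in JMJD1B-/- libraries. Of 8 inactivation genes and 3 transporters none passed that threshold, and the most abundant were Ptgr2, a prostaglandin reductase (12.2 and 12.95 RPKM in WT, 13.6 and 17.2 RPKM in JMJD1B-/- libraries), and Abcc1, an exporter of leukotriene C4 (22.8 and 20.0 RPKM in WT, 15.5 and 19.1 RPKM in JMJD1B-/- libraries). The omega-hydroxylase gene Cyp4f17 was listed at 0 in JMJD1B-/- replicate 1.

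Of 10 receptor genes, 8 had a negative log2 fold change, with a median of −0.75, and 2 were lower at an unadjusted p under 0.05. For all genes these are 53.0%, −0.02 and 6.33%. Ptger3, which encodes the prostaglandin E2 receptor EP3 and is the most abundant, had 10.1 and 7.94 RPKM in WT and 3.97 and 6.74 RPKM in JMJD1B-/- libraries (log2 fold change −0.78, SE 0.33, limma adjusted p = 0.489). Cysltr2, a receptor for cysteinyl leukotrienes, had 1.91 and 8.75 RPKM in WT and 0.181 and 1.68 RPKM in JMJD1B-/- libraries (log2 fold change −2.58, SE 1.01, limma adjusted p = 0.469). Both had no overlap between groups, and for Cysltr2 the lower WT library lay close to the higher JMJD1B-/- library, while the lowest value stands for 1.11 reads per kilobase of transcript.

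Among 5 regulators, Anxa1 and Mapkapk2 were lower at an unadjusted p under 0.05 in limma, beside 6.33% of all genes. Anxa1 encodes annexin A1, a protein of myeloid cells that holds phospholipase A2 in check, and had 34.8 and 41.1 RPKM in WT and 15.3 and 7.80 RPKM in JMJD1B-/- libraries. Its log2 fold change was −1.78 (SE 0.32, limma adjusted p = 0.162). The libraries of Anxa1 were ordered like those of Alox5 within the JMJD1B-/- group and the other way within the WT group. Mapkapk2, a kinase that phosphorylates 5-lipoxygenase, had 44.7 and 40.0 RPKM in WT and 26.8 and 27.5 RPKM in JMJD1B-/- libraries (log2 fold change −0.64, SE 0.18, limma adjusted p = 0.335). Gpx1, a glutathione peroxidase and the most abundant regulator, had 226 and 234 RPKM in WT and 265 and 308 RPKM in JMJD1B-/- libraries.

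**Figure D4:**
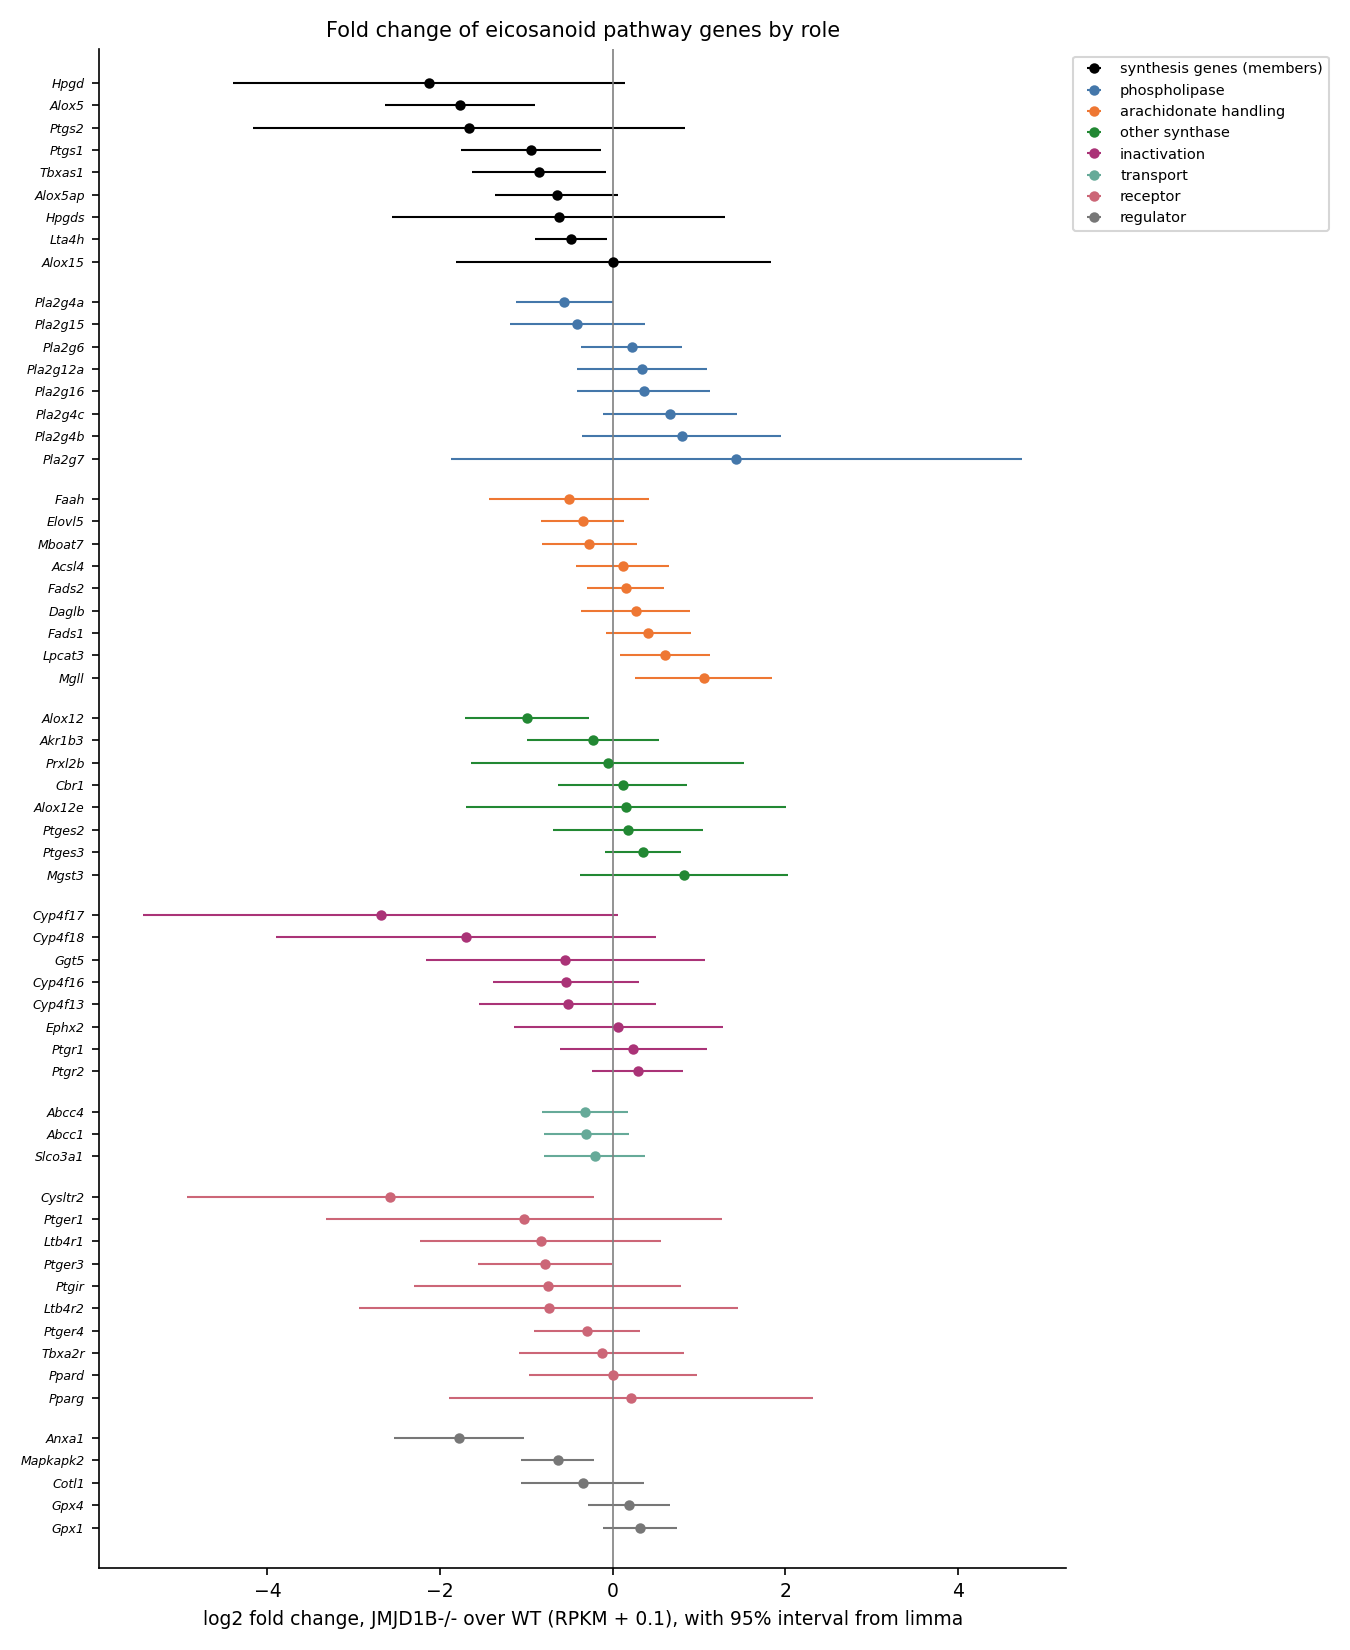
log2 fold change of JMJD1B-/- over WT HSPCs on log2(RPKM + 0.1), with 95% intervals from limma (horizontal axis), for the 9 synthesis genes in black and the 51 other pathway genes by role in colour. All synthesis genes but Alox15 lie left of 0, and the other pathway genes are divided into 27 left and 24 right of 0.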

How the data were processed

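HSPC RNA was extracted with a column kit and made into libraries with a TruSeq RNA kit, per the labels. The authors deposited 1 table of RPKM values, to which 1 had been added, with a column for each of 4 libraries. The submitters' processing notes name TopHat2, Novoalign and mm9 without their roles, and the counting program and annotation are not given in the sources used here. The table leaves out genes that stay under 1 RPKM throughout. RPKM was the value minus 1, and 42 names with several entries were averaged.

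Depth was recovered from the whole-number steps of low values. The steps left a factor of 2 open for JMJD1B-/- replicate 1, which was settled by the share of even counts. For 96 genes the values fitted whole reads, 21 of which gave the same depth, and no other depth came from more than 2, and read counts of the remaining genes were not recovered, so no count test was run. The depths and reads per kilobase rest on this estimate and cover counting error only.

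Genes with a mean of at least 0.5 RPKM were tested on log2(RPKM + 0.1), a scale that understates the change of low genes, with limma 3.58.1 (R 4.3.3, trend, two-sided, no replicate term) and Benjamini-Hochberg adjustment over 11863 genes. The script was tested on simulated data. The members, the pathway list and the marker lists were chosen with earlier results of these data known, so no test was run over a list. Named were all members, Kdm3b, pathway genes with an unadjusted p under 0.05 and the most abundant of each role, the most abundant gene in WT of a marker list the text uses, with those under that p where they fit in a sentence, and the 3 genes most like the member with the lowest p. Kit, Ly6a, Ccr3, Ear2, Ear6 and Cyp4f17 fall outside these rules, and other names are said to be chosen later. Promoters are RefSeq GRCm38.p6 sequence. ChIP-seq was not used here. Python 3.11.15 was used for tables (pandas 2.3.3, numpy 2.4.6) and figures (matplotlib 3.10.9).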

Additional observations from a re-analysis of the deposited data

How the results depend on the processing

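With 2 libraries per genotype and 6.11 M reads in the shallowest, genes near 1 RPKM (Ptgs2, Hpgds and Hpgd) are measured poorly. Alternatives were pseudocounts of 0.01 and 1, no filter or a mean of at least 1 RPKM, median-ratio scaling, quantile normalization, limma without a trend, a gene-by-gene test that assumes equal variances, a replicate block and leaving out each library. The members lower at an unadjusted p under 0.05 numbered 4, and 5 with a pseudocount of 1, 6 with the replicate block and 1 by the gene-by-gene test (Lta4h) and 1 by limma without a trend (Alox5). All genes lower at that threshold numbered 751, and 794, 914, 512 and 768 under these settings in the same order. For the other pathway genes, the gene-by-gene test gave 2 lower and 1 higher, and median-ratio scaling gave 5 higher. All genes higher numbered 452 in the main fit, 348 by the gene-by-gene test and 630 with median-ratio scaling. Over all genes, those under an adjusted p of 0.05 numbered 0 by the gene-by-gene test and by limma without a trend, 3 with a pseudocount of 0.01 and with a mean of at least 1 RPKM, 18 with a pseudocount of 1, and 1 with each of the other scalings. Apart from leaving out libraries, the median log2 fold change of the members lay between −0.87 and −0.75, and Alox15 reversed to −0.024 under quantile normalization. The causes were not tested.

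With 1 library left out, the lone library of a group is assumed to vary like the other group. The members called ranged from 0 to 3 at an adjusted p under 0.05, from 1 to 6 lower and from 0 to 1 higher at an unadjusted p under 0.05. The other pathway genes ranged from 0 to 5 at an adjusted p, from 2 to 8 lower and from 0 to 6 higher. All genes ranged from 1 to 989 at an adjusted p, from 190 to 1777 lower and from 127 to 1367 higher. The median of the members ranged from −1.21 to −0.59, Alox15 from −1.21 to 1.22 (−0.80 without WT replicate 2) and Hpgds from −1.32 to 0.060. Ptgs2 was not tested at a mean of at least 1 RPKM or without WT replicate 2, nor Hpgds at a mean of at least 1 RPKM.

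Over all genes, same-numbered libraries did not deviate together (r = −0.05 across 11863 genes, which are not independent). A single correlation cannot exclude a pairing that acts on some genes alone. Replicate 2 was below replicate 1 in both genotypes for 8 of 9 eosinophil, 8 of 10 neutrophil and 9 of 13 monocyte and macrophage genes. The same held for 0 of 13 erythroid, 1 of 16 megakaryocyte and 1 of 12 T and NK cell genes. With the replicate block, 1 member (Alox5, limma adjusted p = 0.000621), 2 other pathway genes and 256 of all genes passed an adjusted p under 0.05.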
